A study of Mus musculus with 5 samples.

Results

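The genes described here are 10 genes of the interleukin-1 (IL-1) system, namely the ligands *Il1a* and *Il1b*, the receptor antagonist *Il1rn*, the receptor chains *Il1r1* and *Il1rap*, the adaptor *Myd88* and the IL-1 receptor associated kinases *Irak1*, *Irak2*, *Irak3* and *Irak4*. They were chosen by name, with earlier results of these arrays known, from the 19505 genes that had a named probe set. Of the 10 genes, 8 had a named probe set, 1 each, and *Irak1* and *Irak4* were not analysed here. The RNA came from 3T3-L1 cells, a mouse preadipocyte line, and was hybridised to 5 Clariom S Mouse arrays (Affymetrix). In the MM.1S pre-exposed group (MM-3T3-L1s, 3 arrays), confluent preadipocytes were kept for 48 h in RPMI-1640 with serum while MM.1S cells, a human myeloma line, grew on the other side of a transwell membrane with 0.4 µm pores. In the control group (2 arrays) the preadipocytes had the same RPMI-1640 medium over the same time without MM.1S cells. The myeloma cells were then taken away, and both groups were differentiated with IBMX, dexamethasone and insulin, then with insulin alone, and collected after 7 days of differentiation. Both groups are therefore adipocyte cultures of 1 cell line that differ in what the preadipocytes had been exposed to. The labels do not say whether the arrays of a group came from separate cultures, so the spread given below may be technical.

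IL-1 alpha and IL-1 beta bind the receptor IL1R1, which then recruits the accessory chain IL1RAP, and the receptor antagonist IL1RN occupies IL1R1 without signalling. The paired receptor tails bind MYD88, which gathers the IRAK kinases and through TRAF6 activates NF-κB and the MAP kinases, and IRAK3 (also called IRAK-M) is known as the member that restrains this cascade. In fat cells IL-1 is known as an inhibitor of differentiation and of insulin action, and as an inducer of cytokines, chemokines and acute-phase proteins.

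Values are log2 signals, so a difference of 1 is a factor of 2, and the standard error (SE) of a difference is that of the limma fit over all 22206 probe sets. A signal level of 3.59, the 95th percentile of the group of 1448 olfactory, vomeronasal and taste receptor genes, served as the background level, and 61.0% of probe sets had a mean above it. Correlations between arrays ran from 0.985 to 0.993 and the array medians from 4.47 to 4.53. In these bulk samples, fewer cells of a type and less RNA per cell cannot be told apart. All 9 measured adipocyte markers lay above the background level, with an average over the list of 9.97, 9.91 and 9.85 on the MM.1S arrays and 10.00 and 9.81 on the control arrays. Of these markers 1 was past the thresholds described below, *Retn*, which encodes the adipokine resistin, with 8.88, 8.75 and 8.20 on the MM.1S arrays and 9.40 and 9.08 on the control arrays. The groups of *Retn* were apart and the difference was -0.63 ± 0.23 (SE), with an unadjusted p of 0.0374 and an adjusted p of 0.642 in limma. *Fabp4*, the fatty acid carrier of adipocytes, had a difference of 0.32 ± 0.11 (SE) with an unadjusted p of 0.0243 and an adjusted p of 0.596 in limma, short of the fold threshold.

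Of the 8 measured genes, *Irak3* was the one with a large difference, 3.64-fold higher in MM-3T3-L1s than in control cells. The kinase *Irak2*, the receptor chains *Il1r1* and *Il1rap* and the adaptor *Myd88* were detected, with differences of 0.34 or less on the log2 scale. The ligands *Il1a* and *Il1b* and the antagonist *Il1rn* did not reach the background level in the MM-3T3-L1s or in the control cells. The study's thresholds asked for more than a 1.5-fold change together with p at or below 0.05 before adjustment. By these, 2 of the 8 measured genes were higher, *Irak3* and the dim *Il1a*, and 0 were lower. Over all probe sets these thresholds called 0.910% higher and 1.44% lower. With the p of the methods' one-way ANOVA in place of limma's, the same 2 genes were higher and 0 were lower, against 0.468% and 0.811% of all probe sets. Since the genes were chosen with this contrast in view, their values are a description and no test is attached to them. The median difference over the 8 genes was 0.06, and that over all probe sets was 0.01.

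Among the ligands, *Il1a*, which encodes the membrane-bound or cell-associated IL-1 alpha, had log2 signals of 2.69, 2.77 and 2.85 on the MM.1S arrays and 2.13 and 2.07 on the control arrays. Both control arrays were under all 3 MM.1S arrays, with a gap of 0.55, yet all 5 arrays lay below the background level. The difference was 0.66 ± 0.11 (SE) on the log2 scale, and no fold is given because neither group was above background. *Il1b*, which encodes the secreted IL-1 beta, had 2.72, 2.67 and 2.82 on the MM.1S arrays and 2.67 and 2.45 on the control arrays. Its groups overlapped, since control replicate 1 was at the level of MM.1S replicate 2, and the difference was 0.18 ± 0.12 (SE).

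*Il1rn*, the antagonist, had log2 signals of 2.51, 2.23 and 2.22 on the MM.1S arrays and 1.99 and 3.37 on the control arrays. The control arrays differed by 1.38, more than the 0.28 between the MM.1S arrays, and the MM.1S arrays lay between the controls. The difference of -0.36 ± 0.39 (SE) was within that spread. It became -1.05 without control replicate 1 and 0.33 without control replicate 2, so its sign rested on 1 control array.

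The receptor chains were detected at nearly equal levels. *Il1r1*, the signalling receptor, had log2 signals of 8.81, 8.90 and 8.90 on the MM.1S arrays and 8.90 and 8.97 on the control arrays. The groups overlapped and the difference was -0.07 ± 0.11 (SE). *Il1rap*, the accessory chain that IL1R1 shares with other receptors of the family, had 5.99, 6.01 and 5.73 on the MM.1S arrays and 5.87 and 6.08 on the control arrays. These groups overlapped as well, with a difference of -0.07 ± 0.14 (SE).

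*Myd88*, the adaptor between receptor and kinases, had log2 signals of 5.98, 5.87 and 5.98 on the MM.1S arrays and 5.44 and 5.88 on the control arrays. Control replicate 2 was inside the range of the MM.1S arrays and control replicate 1 was below it. The difference was 0.29 ± 0.16 (SE), which became 0.064 without control replicate 1 and 0.51 without control replicate 2.

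Of the kinases, *Irak2* and *Irak3* were measured. *Irak2*, a kinase-like member that sustains signalling through TRAF6, had log2 signals of 6.88, 7.00 and 6.90 on the MM.1S arrays and 7.42 and 7.12 on the control arrays. The 3 MM.1S arrays were below both control arrays, by a gap of 0.11 that was smaller than the 0.30 between the controls. Its difference of -0.34 ± 0.13 (SE) did not reach the fold threshold, and ran from -0.49 to -0.19 when single arrays were left out.

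*Irak3* had log2 signals of 6.43, 6.71 and 6.22 on the MM.1S arrays and 4.22 and 4.96 on the control arrays. Every MM.1S array was above every control array, and the gap of 1.26 exceeded the range within either group. The mean was 6.45 ± 0.25 in MM-3T3-L1s (SD, 3 arrays) and 4.59 ± 0.52 in control cells (SD, 2 arrays), a difference of 1.87 ± 0.26 (SE). By increase, *Irak3* ranked 2 among the 22206 probe sets, and by size of difference in either direction it ranked 6. Both groups were above the background level. The control arrays differed from each other by 0.74, where the median probe set differed by 0.14, and this placed *Irak3* at the 98.1 percentile of differences between the control arrays. Without control replicate 1, the lower of the control arrays, the difference was 1.495, and without control replicate 2 it was 2.24.

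**Figure D1:**
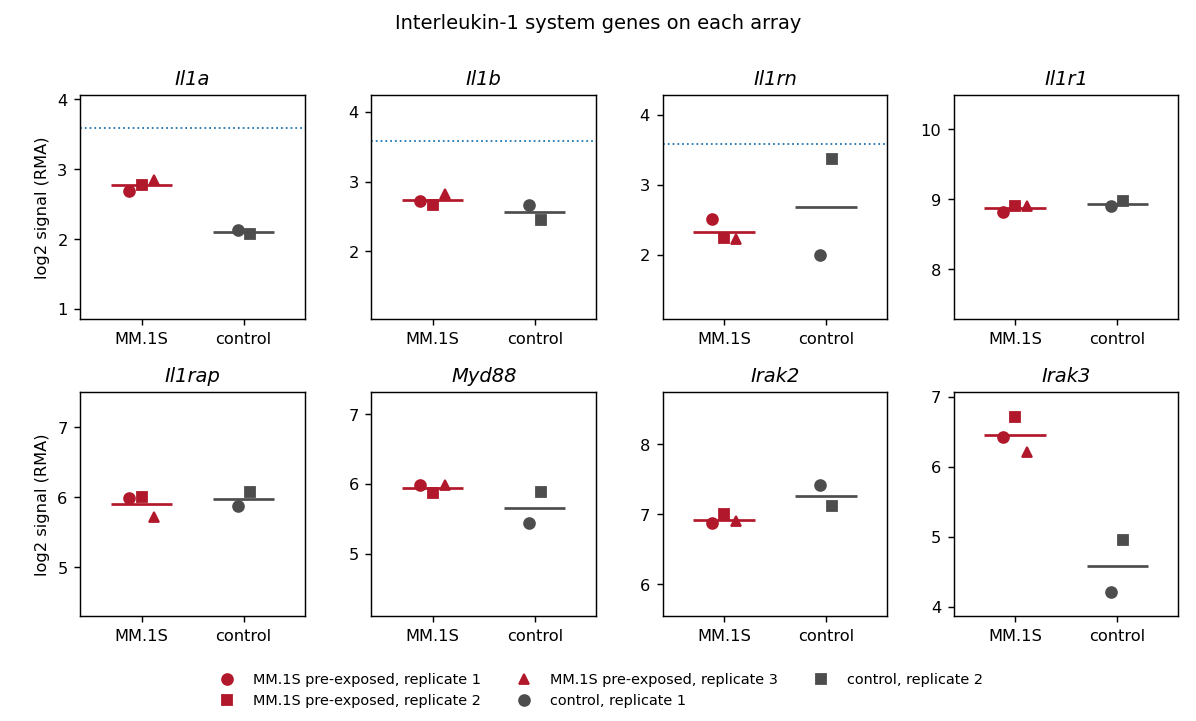
Log2 signal (RMA) of each of the 8 measured genes of the IL-1 system, 1 panel a gene, with the MM.1S pre-exposed arrays in red left of the control arrays in grey. Each symbol is 1 array, the horizontal line is the group mean, and the dotted line, where in range, is the background level of 3.59. Every panel spans the same number of log2 units. *Irak3* has the widest separation, and *Il1a*, *Il1b* and *Il1rn* stay below the dotted line on all arrays.

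Over the measured genes, 2 had every MM.1S value over the controls, 1 had every MM.1S value under them and 5 overlapped. Over all probe sets the arrays lay apart upward for 11.9% and downward for 12.2%. The plot of the differences places *Irak3* alone beyond 1 log2 unit.

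**Figure D2:**
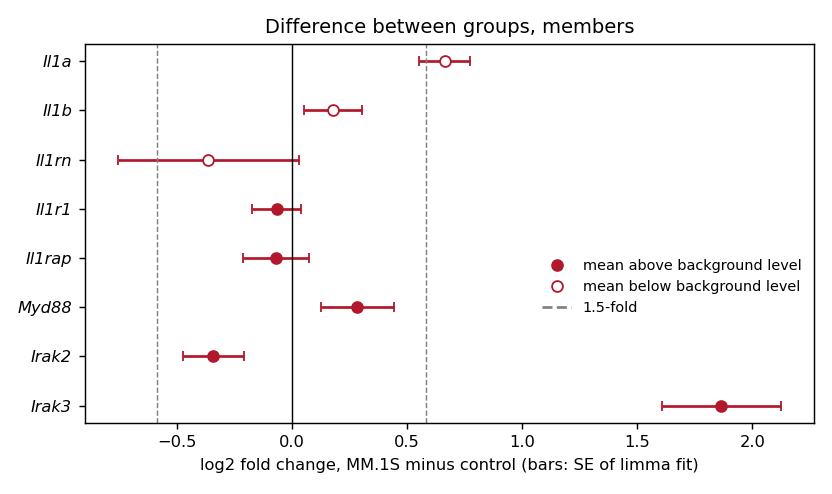
Log2 fold change, MM.1S pre-exposed minus control, of the 8 measured genes, with the SE of the limma fit as bars and dashed lines at a fold change of 1.5 in either direction. Filled points have a mean above the background level and open points do not. *Irak3* lies at 1.87, *Il1a* at 0.66 is the other point beyond the dashed lines, and the bar of *Il1rn* is the widest.

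Sequences before the transcription starts were read because *Irak3* and *Il1a* were the genes past the thresholds. RefSeq windows of 250 bases upstream of a start (GRCm38.p6) were found for all 8 measured genes, 12 windows in all, and were searched on both strands for an NF-κB motif, for an AP-1 motif (TGANTCA), a C/EBP motif (TTGCNNCAA) and a STAT motif (GAS, TTCNNNGAA). *Irak3* has 2 annotated starts on chromosome 10. The window before the outer start, chr10:120202131-120202380 on the minus strand, has a GC content of 47.6% and that before the inner start 66.4%, and neither holds any of the 4 motifs. The window of *Il1a*, chr2:129309973-129310222 on the minus strand, holds an AP-1 match, in capitals, whose offset from the start is -12. Both windows are written 5′ to 3′.
Irak3, outer start: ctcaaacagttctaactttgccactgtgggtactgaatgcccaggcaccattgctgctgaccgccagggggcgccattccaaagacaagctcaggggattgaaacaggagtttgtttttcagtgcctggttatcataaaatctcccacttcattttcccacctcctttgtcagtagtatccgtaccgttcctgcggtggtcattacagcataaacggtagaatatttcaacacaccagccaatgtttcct
Il1a: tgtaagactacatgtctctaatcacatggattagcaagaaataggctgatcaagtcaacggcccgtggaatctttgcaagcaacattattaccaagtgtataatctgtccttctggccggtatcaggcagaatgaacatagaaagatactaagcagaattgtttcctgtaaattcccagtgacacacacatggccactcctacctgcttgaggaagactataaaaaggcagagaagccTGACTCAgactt

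In the other windows, an AP-1 match lies before 1 start of *Il1rn* (offset -141), an NF-κB match before 1 start of *Il1r1* (offset -232) and a GAS match before *Myd88* (offset -46). No match was found for *Irak2*, *Il1b* or *Il1rap*. Of all 32851 mouse windows of this length, 3.90% hold the NF-κB motif, 6.75% the AP-1 motif, 1.74% the C/EBP motif and 7.02% the GAS motif. A match describes letters in the window only.

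The genes whose pattern over the 5 arrays lay nearest to that of *Irak3* were found by the Euclidean distance between log2 signals after each gene's own mean was subtracted, over 12135 genes above the background level. The nearest was *Lcn2*, lipocalin 2, an acute-phase protein that binds bacterial siderophores, at a distance of 0.72. It was followed by *Ereg*, which encodes the EGF receptor ligand epiregulin (0.88), *Steap4*, a metalloreductase of adipocytes (0.89), *A4galt*, a glycolipid galactosyltransferase (0.90), and *Fgl1*, a fibrinogen-like protein known from liver (0.91). The median distance over all the genes compared was 2.19. A gene with equal signal on all 5 arrays would lie at 2.14. A large increase on the MM.1S arrays therefore shortens the distance by itself. *Ereg* had log2 signals of 5.46, 5.69 and 5.26 on the MM.1S arrays and 4.08 and 4.73 on the control arrays. *A4galt* had 6.95, 6.76 and 6.73 on the MM.1S arrays and 5.24 and 6.14 on the control arrays. *Fgl1* had 4.15, 4.20 and 4.37 on the MM.1S arrays and 2.76 and 3.39 on the control arrays, which were below the background level. Each of these 5 genes, as *Irak3*, was lowest on control replicate 1. They were chosen by closeness to *Irak3* on these same arrays, so this likeness is not a separate finding.

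**Figure D3:**
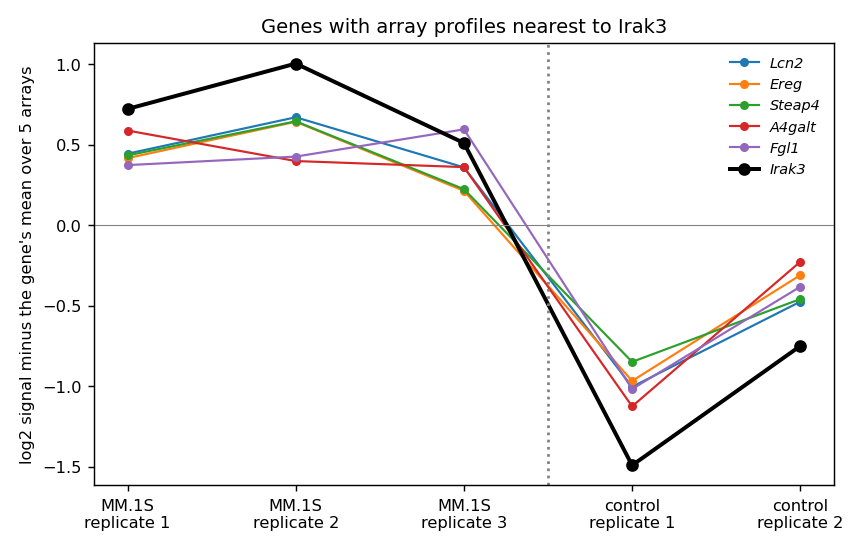
Log2 signal minus the gene's own mean over the 5 arrays, for *Irak3* (thick black line) and the 5 genes nearest to it. The 3 MM.1S arrays stand left of the dotted line and the 2 control arrays right of it. Lines join the values of a gene and carry no order of arrays. All 6 genes are above their mean on the MM.1S arrays and below it on the control arrays, with control replicate 1 the lowest. The 5 genes were chosen for this likeness to *Irak3*.

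Genes that IL-1 is known to induce were considered next, because they read the output of the pathway, although most of them also respond to TNF and to bacterial products. The list held 36 genes, 34 of them measured and 33 above the background level. Of the 34, 11 were higher in MM-3T3-L1s, 0 were lower and 23 did not pass the thresholds, against the 0.910% of all probe sets that were higher. The median difference was 0.27 over the list and 0.01 over all probe sets. With the Benjamini-Hochberg adjustment 0 probe sets passed in the main limma fit, where the smallest adjusted p was 0.166. An alternative limma setting let 9 of all probe sets pass and the methods' one-way ANOVA 2, as given below. Unadjusted, at 0.05 or less and any fold, 772 probe sets were higher (3.48%) and 912 lower (4.11%). By that p in limma, 14 of the 34 genes of the list were higher and 1 lower. A part of this list had been seen to differ on these arrays before it was chosen, so its direction is not independent evidence.

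By size of difference, *Lcn2*, *Hp* and *Steap4* came first in the list. *Lcn2* had log2 signals of 10.80, 11.02 and 10.71 on the MM.1S arrays and 9.35 and 9.88 on the control arrays. The groups were apart and the difference was 1.23 ± 0.19 (SE), with an unadjusted p of 0.000841 and an adjusted p of 0.348 in limma. *Hp*, haptoglobin, which binds free haemoglobin, had 12.15, 12.18 and 11.94 on the MM.1S arrays and 11.13 and 10.82 on the control arrays. Its difference of 1.12 ± 0.15 (SE) had an unadjusted p of 0.000324 and an adjusted p of 0.281 in limma. *Steap4* had 8.29, 8.50 and 8.08 on the MM.1S arrays and 7.01 and 7.40 on the control arrays, a difference of 1.09 ± 0.18 (SE) with an adjusted p of 0.388 in limma. *Saa3*, serum amyloid A3 of mouse fat, had 11.33, 11.30 and 10.86 on the MM.1S arrays and 9.82 and 10.64 on the control arrays. The control arrays of *Saa3* differed by more than the gap to the lowest MM.1S array, and its difference was 0.93 ± 0.28 (SE), adjusted p = 0.583 in limma.

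The higher cytokines and chemokines were *Ccl20*, *Il6*, *Cxcl1* and *Cxcl5*. *Ccl20*, which attracts CCR6-bearing lymphocytes, had log2 signals of 4.87, 5.05 and 5.60 on the MM.1S arrays and 4.05 and 4.30 on the control arrays, a difference of 1.00 ± 0.24 (SE). *Il6*, a growth factor of myeloma cells, had 5.93, 5.79 and 5.21 on the MM.1S arrays and 4.54 and 4.81 on the control arrays, a difference of 0.97 ± 0.24 (SE). The neutrophil attractant *Cxcl1* had 8.41, 8.05 and 7.66 on the MM.1S arrays and 6.80 and 7.39 on the control arrays, a difference of 0.94 ± 0.28 (SE). In all of these the groups were apart, with MM.1S replicate 3 the highest of the 5 arrays for *Ccl20* and the lowest of the MM.1S arrays for *Il6* and *Cxcl1*. *Cxcl5*, another neutrophil attractant, had 9.61, 9.70 and 9.27 on the MM.1S arrays and 8.63 and 9.13 on the control arrays, a difference of 0.65 ± 0.21 (SE). *Sod2*, the mitochondrial superoxide dismutase, differed by 0.80 ± 0.21, the stress-induced transcription factor *Atf3* by 0.72 ± 0.18 and *Nos2*, the inducible nitric oxide synthase, by 0.67 ± 0.18 (SE). As for *Saa3*, the control arrays of *Cxcl1*, *Cxcl5* and *Atf3* differed by more than the gap to the lowest MM.1S array. Adjusted p-values in limma of the 11 genes ran from 0.281 to 0.591.

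**Figure D4:**
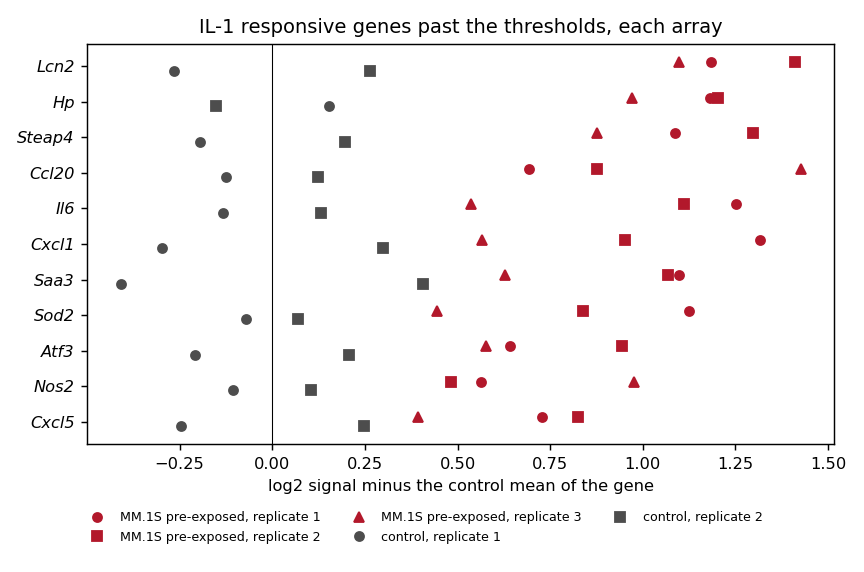
The 11 IL-1 responsive genes past the thresholds, each array as the log2 signal minus the control mean of the gene, with MM.1S pre-exposed arrays in red and control arrays in grey. All red symbols lie right of both grey symbols in every row. Control replicate 1 (grey circle) is the lower control in each row but *Hp*.

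Control replicate 1 was below control replicate 2 for 10 of the 11 genes, where it was so for 46.8% of all probe sets. Without control replicate 1, 3 genes of the list passed the thresholds, *Lcn2*, *Hp* and *Steap4*, and *Birc3* was the 1 lower gene. The methods' one-way ANOVA at the same thresholds called 6 genes of the list higher, *Il6*, *Ccl20*, *Lcn2*, *Hp*, *Steap4* and *Atf3*, against 0.468% of all probe sets. Among the genes that did not pass, *Nfkbia*, which encodes IκBα, differed by 0.29 ± 0.17, *Tnfaip3*, which encodes the ubiquitin-editing enzyme A20, by -0.26 ± 0.17 and *Nfkbiz*, a nuclear IκB, by 0.05 ± 0.14 (SE). *Irf1*, an interferon response factor, had a difference of -0.30 ± 0.12 (SE) and the matrix metalloproteinase *Mmp3* one of -0.71 ± 0.30 (SE), neither past both thresholds. *Csf3*, *Mmp13* and *Cebpb* were higher by the p threshold alone, with differences of 0.42 ± 0.14, 0.48 ± 0.19 and 0.37 ± 0.13 (SE).

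Markers of macrophages, a cell type that carries IL-1 receptors and produces IL-1, were read beside these genes. Of 9 measured markers 3 lay above the background level, *Ptprc*, *Lyz2* and *Cd14*, and the others, among them *Adgre1*, *Csf1r* and *Itgam*, lay below it. The average over the list was 3.76, 3.75 and 3.86 on the MM.1S arrays and 3.54 and 3.58 on the control arrays, so these averages did not overlap. Gene by gene, 2 of the 9 markers had all MM.1S arrays above both controls and 7 overlapped. Over all probe sets 11.9% lay apart upward. *Cd14*, the endotoxin co-receptor, was the 1 marker past the thresholds, with 7.13, 7.29 and 7.15 on the MM.1S arrays and 6.10 and 6.62 on the control arrays, a difference of 0.83 ± 0.18 (SE), adjusted p = 0.467 in limma. Markers of plasma and B cells, 2 of 9 above the background level, averaged 3.12, 2.98 and 3.00 on the MM.1S arrays and 2.91 and 2.92 on the control arrays. Preadipocyte and fibroblast markers, 5 of 6 above the background level, averaged 8.60, 8.52 and 8.45 on the MM.1S arrays and 8.78 and 8.75 on the control arrays. The averages of neither list overlapped between the groups, and none of their genes passed the thresholds. Gene by gene, 3 of the 9 plasma and B cell markers lay apart upward and 6 overlapped. Of the 6 preadipocyte and fibroblast markers, 4 lay apart downward, 1 lay apart upward and 1 overlapped. *Dlk1* differed by -0.45 ± 0.10 (SE), with an unadjusted p of 0.00577 and an adjusted p of 0.510 in limma. *Col3a1* differed by -0.40 ± 0.12 (SE), with 0.0176 and 0.583 in limma. The part of these shifts in the differences above was not tested.

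The genes that carry the signal from the receptor to NF-κB and the MAP kinases had differences from -0.50 to 0.35. Of 31 listed genes 29 were measured and 27 lay above the background level, and 0 were higher and 0 lower by the thresholds. At an unadjusted p of 0.05 or less in limma 1 was higher, *Tirap*, and 0 were lower. Over all probe sets 3.48% were higher and 4.11% lower at that p. The methods' ANOVA at the same thresholds also called 0. The median difference was -0.11, with 8 genes above 0 and 21 below. All MM.1S arrays lay below both controls for 7 of the 29 genes and above them for 2, and 20 overlapped. Over all probe sets 12.2% lay apart downward and 11.9% upward. *Tirap*, a sorting adaptor for MYD88 in toll-like receptor signalling, had log2 signals of 6.01, 6.07 and 5.89 on the MM.1S arrays and 5.54 and 5.74 on the control arrays, a difference of 0.35 ± 0.12 (SE) with an unadjusted p of 0.0315 and an adjusted p of 0.624 in limma. *Tab3*, a ubiquitin-binding subunit of the TAK1 complex, had 5.12, 5.08 and 5.72 on the MM.1S arrays and 5.80 and 5.83 on the control arrays, a difference of -0.50 ± 0.22 (SE). The JNK kinases *Mapk8* and *Mapk9* differed by -0.36 ± 0.16 and -0.34 ± 0.15 (SE), and *Mapk8* lay below the background level. *Traf6*, the ubiquitin ligase next to the IRAK kinases, had 6.09, 6.01 and 6.59 on the MM.1S arrays and 6.21 and 6.22 on the control arrays, groups that overlapped.

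Of 20 genes for the processing and release of IL-1, all were measured, 11 lay above the background level, and none was higher or lower by the thresholds. The median difference was 0.04. At an unadjusted p of 0.05 or less in limma 2 were higher and 2 lower, against 3.48% and 4.11% of all probe sets. The methods' ANOVA at the full thresholds called 0. *Prtn3*, neutrophil proteinase 3, had log2 signals of 6.59, 6.58 and 6.86 on the MM.1S arrays and 6.30 and 6.04 on the control arrays, a difference of 0.50 ± 0.15 (SE), adjusted p = 0.583 in limma. *Gsdmd*, gasdermin D, which forms the pores through which IL-1 beta leaves the cell, had 5.25, 5.06 and 4.71 on the MM.1S arrays and 5.38 and 5.64 on the control arrays, a difference of -0.50 ± 0.19 (SE), adjusted p = 0.651 in limma. *Capn1*, a calpain, differed by -0.28 ± 0.11, and the inflammasome sensor *Nlrp1b*, below the background level, by 0.33 ± 0.13 (SE). *Casp1*, the caspase that matures IL-1 beta, was below the background level, with 3.18, 2.77 and 2.29 on the MM.1S arrays and 2.81 on both control arrays.

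Among the other ligands and receptors of the family, 14 of 16 were measured, and *Il1rl1*, the receptor for IL-33, and *Il36rn* were not analysed here. The paper lists *Il1rl1* among the most decreased transcripts of this comparison, with a fold change larger in size than that of *Irak3*. Of the 14 measured, 4 lay above the background level, 1 was lower, *Il18*, and 0 were higher. Over all probe sets the thresholds called 1.44% lower and 0.910% higher. *Il18*, a cytokine that is matured by the same caspase and acts on T and NK cells, had log2 signals of 3.27, 4.27 and 3.92 on the MM.1S arrays and 4.56 and 4.91 on the control arrays. The groups were apart, although MM.1S replicate 1 lay below the background level. The difference was -0.91 ± 0.31 (SE), with an unadjusted p of 0.0259 and an adjusted p of 0.606 in limma. *Il18* did not pass without control replicate 1, control replicate 2 or MM.1S replicate 3, nor by the methods' ANOVA. *Il1rl2*, the receptor for the IL-36 cytokines, had 4.67, 4.55 and 4.31 on the MM.1S arrays and 4.94 and 4.86 on the control arrays, a difference of -0.39 ± 0.14 (SE). *Il1f10*, which encodes IL-38, and the IL-18 receptor accessory chain *Il18rap* differed by 0.26 ± 0.14 and -0.40 ± 0.26 (SE), and lay below the background level, as did the decoy receptor *Il1r2* and the inhibitory receptor *Sigirr*. *Il33*, the alarmin ligand of the family, had 3.72, 4.07 and 4.29 on the MM.1S arrays and 3.86 and 3.88 on the control arrays, groups that overlapped.

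**Figure D5:**
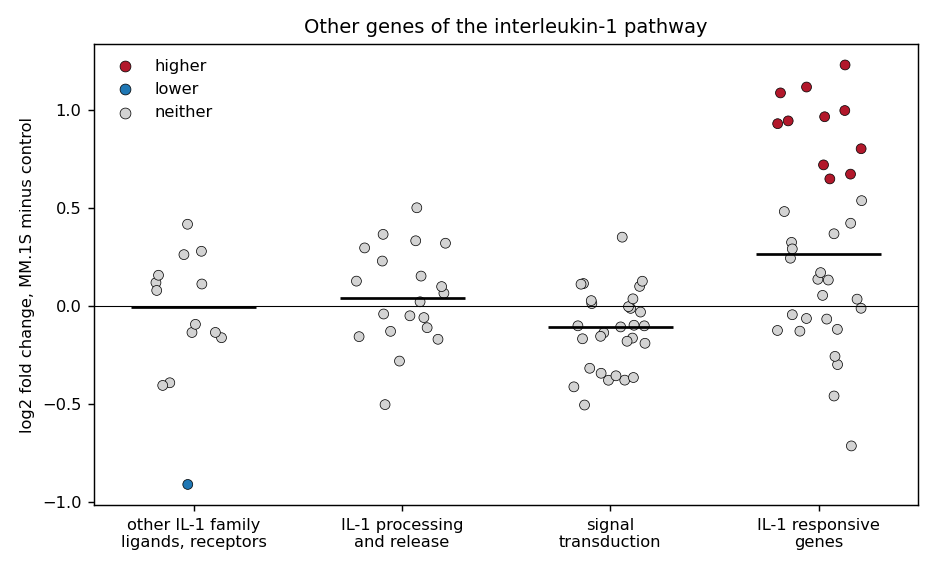
Log2 fold change, MM.1S pre-exposed minus control, of each measured gene in 4 lists of the IL-1 pathway, with list medians as horizontal bars and points spread sideways for legibility. Red marks genes higher and blue genes lower by the thresholds (p of 0.05 or less before adjustment, more than 1.5-fold). The list of IL-1 responsive genes holds all 11 red points, *Il18* is the 1 blue point, and the bar of the signal transduction genes lies at -0.11.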

How the data were processed

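The deposited values are log2 signals. The authors had computed them in Partek with RMA, robust multi-array averaging, which subtracts background, equalises the distributions of the arrays and combines the probes of a probe set. A genome build and the set of arrays normalized together are not given in the sources used here. Of 22206 probe sets, 19572 carried a gene symbol and 2634 are not named here. Where a gene had several probe sets, that with the highest mean was used. Older symbols were matched through RefSeq synonyms. The groups were compared over all 5 arrays with lmFit and eBayes of limma 3.58.1 in R 4.3.3, in a model with a group term alone (residual degrees of freedom 3, prior 2.79). Two-sided p-values were corrected across the whole table with the Benjamini-Hochberg method. The script was tested on simulated data. The smallest p that an exact permutation of 3 against 2 arrays can give is 0.1.

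The genes and lists were chosen with earlier results of these data known. Named were all 10 genes of the rule, in each of 4 pathway lists every gene past the thresholds and the 4 of smallest p, the markers whose levels are given, and the 5 genes nearest to *Irak3*. *Traf6*, *Casp1*, *Il1r2*, *Sigirr*, *Il33*, *Nfkbia*, *Tnfaip3*, *Nfkbiz*, *Irf1*, *Mmp3*, *Csf3*, *Mmp13*, *Cebpb* and *Birc3* were named after their values were seen. Alternatives were the methods' one-way ANOVA, eBayes with an intensity trend and robust prior, omission of probe sets at or below background, a further quantile normalization, median centring, replicate number as a block, array weights, a fold limit of 2, and omission of each array in turn.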

Additional observations from a re-analysis of the deposited data

How the results depend on the processing

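The 8 genes of the IL-1 system kept the sign of their difference under all alternatives other than omission of single arrays, with the exception of *Il1rap*, which was 0.021 with the replicate block and 0.0038 after a further quantile normalization. No called value turned its sign. A further quantile normalization gave *Il1a* 0.59. Of the 8 genes, 1 was higher without dim probe sets and 1 at a fold change above 2, in both cases *Irak3*. *Il18*, the 1 lower gene among the other measured family members, did not pass by the methods' ANOVA (0 lower) or at a fold change above 2 (0 lower). Among the signal transduction genes, 1 was lower (*Tab3*) with the replicate block and 1 with array weights. Of the IL-1 responsive genes, 6 were higher by the methods' ANOVA and 3 at a fold change above 2. After Benjamini-Hochberg adjustment, 9 of all probe sets passed with the intensity trend and robust prior, and 2 by the methods' ANOVA. *Hp*, with an unadjusted p of 1.75e-05 in limma with that trend and prior, was among the 9.

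When each array was left out in turn, the difference ran from 1.495 to 2.24 for *Irak3*, from -0.49 to -0.19 for *Irak2*, from 0.62 to 0.70 for *Il1a*, from 0.07 to 0.29 for *Il1b*, from -1.05 to 0.33 for *Il1rn*, from -0.10 to -0.03 for *Il1r1*, from -0.17 to 0.04 for *Il1rap* and from 0.064 to 0.51 for *Myd88*. Of the 8 genes 2 were higher in each case (2 to 2), and the number lower ran from 0 to 1, *Il1rn* without control replicate 1. The number lower ran from 0 to 1 among the other family members, from 0 to 1 among the signal transduction genes (*Rnf31* without control replicate 1, *Tab3* without MM.1S replicate 3) and from 0 to 1 among the processing genes (*Gsdmd* without MM.1S replicate 1). The number higher ran from 0 to 1 among the processing genes (*Prtn3* without control replicate 1). Among the IL-1 responsive genes the number higher ran from 3 to 12, with 3 without control replicate 1, and the number lower from 0 to 1. The cause was not tested. Where a single control array was left, it was assumed to vary like the MM.1S arrays.

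No pairing by replicate number was visible. The correlation of deviations from the group means was -0.03 for replicate 1 and 0.06 for replicate 2. With 2 control arrays, whose deviations mirror each other, these values cannot show whether the samples were paired. With the replicate block, which leaves out MM.1S replicate 3 in effect because no control shares its number, *Irak3* differed by 1.98 and 11 IL-1 responsive genes were higher, *Ccl7* among them and *Nos2* not.

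With 2 control arrays the spread of the control group is poorly known, and array number limits the precision of every value. *Il1a*, *Il1b* and *Il1rn* lay below the background level, within the range of the receptor genes that set that level. The median of all probe sets moved by 0.01 under further scaling.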
